A study of Mus musculus with 6 samples.

Results

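Accessible chromatin at 4 genes that set calcium uptake into the sarcoplasmic reticulum, Pln, Sln, Atp2a1 and Atp2a2, was compared between Prr14-KO and Prr14-WT quadriceps femoris of the mouse. Every peak that the authors' deposited table assigns to one of these genes was taken, which gave 36 of 75134 peaks: 18 at Pln, 6 at Sln, 5 at Atp2a1 and 7 at Atp2a2. The assay was ATAC-seq, in which a transposase cuts into open chromatin, on nuclei of frozen muscle. There were 3 libraries of genotype Prr14-KO (KO replicates 4, 5 and 7) and 3 of genotype Prr14-WT (WT replicates 3, 4 and 8). PRR14 is a protein of the nuclear lamina, and the series title ties it to mechanotransduction and to fibre identity through MEF2C. Strain, age, sex, the kind of knockout and whether each library is a separate animal are not stated in the labels, so the spread between libraries may be technical in part. The 4 genes were chosen by their KO against WT accessibility in these same libraries, so differences at their peaks are described with their errors and counts, and no test result is drawn from them.

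Muscle relaxes when calcium pumps of the SERCA family return calcium to the sarcoplasmic reticulum. Atp2a1 encodes SERCA1, the pump of fast-twitch fibres, and Atp2a2 encodes SERCA2, the pump of slow-twitch fibres, heart and smooth muscle. Pln encodes phospholamban, a small membrane protein of heart, smooth muscle and slow-twitch muscle that slows the pump until it is phosphorylated by protein kinase A or CaM kinase. Sln encodes sarcolipin, a related small protein that lets the pump use ATP without moving calcium, a source of heat in muscle.

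The 2 RefSeq promoter windows at hand show the contrast between the fast pump gene and the phospholamban gene in base content and in peak cover, and are the 250 bases before the start site that the RefSeq promoter table uses (GRCm38.p6, transcribed strand, 5′ to 3′). For Atp2a1 that start lies a little inside the gene's RefSeq span, so the last bases of its window do too. Capitals mark the E-box CANNTG and the CCAAT box, searched on both strands; the 2 motifs lie side by side at Pln without overlap.
Pln promoter, chr10:53337436-53337685, plus strand: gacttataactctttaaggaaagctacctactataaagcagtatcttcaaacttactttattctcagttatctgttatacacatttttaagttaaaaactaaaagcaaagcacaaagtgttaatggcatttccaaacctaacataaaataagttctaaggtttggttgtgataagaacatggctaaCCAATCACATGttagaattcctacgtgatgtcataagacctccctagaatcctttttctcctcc
Atp2a1 promoter, chr7:126463074-126463323, minus strand: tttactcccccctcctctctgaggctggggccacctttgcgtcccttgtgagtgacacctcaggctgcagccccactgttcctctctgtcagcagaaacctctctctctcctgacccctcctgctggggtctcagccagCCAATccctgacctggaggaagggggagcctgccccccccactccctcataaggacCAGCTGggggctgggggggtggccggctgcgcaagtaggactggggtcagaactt
The Pln window had a GC content of 32.8% and the Atp2a1 window 64.0%, against a median of 52.4% over 32851 RefSeq windows. No peak of the table overlapped the Pln window, and the nearest Pln peak ended 723 bases away. The Atp2a1 window lay wholly within a peak. Of all 32851 windows, here taken to a little past the start, 42.1% overlapped a peak. An E-box, the site of myogenic factors, stood in both windows and in 66.2% of all, a CCAAT box in both and in 33.8% of all. A GATAAG match stood in the Pln window, as in 6.55% of all. A TATAAA match stood in the Pln window only, as in 12.4% of all. Matches to the MEF2 site (2.92% of all), the CArG box (1.47%), CATTCC (12.6%) and GGGCGG (32.7%) were in neither window. These matches are letters only and show no binding.

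Total counts in peaks ran from 9346968 to 12061822 in KO libraries and from 7608514 to 11575061 in WT libraries. Levels are counts per 1000000 counts in peaks (CPM), scaled with TMM factors. The promoter peak of Prr14 gave a log2 fold change of -0.03 (SE 0.18), which cannot check the labels because the deleted part is not given. Promoter peaks of skeletal fibre markers (Acta1, Ckm, Ttn, Des, Mb) were present for 5 of 5 genes, summing to 453.6 to 476.5 CPM in KO and 376.1 to 585.8 CPM in WT. Fast fibre markers summed to 805 to 853 CPM in KO and 723.5 to 1162 CPM in WT (7 of 7 with a peak, 1 called lower, Myh4). Slow fibre markers summed to 60.3 to 68.8 CPM in KO and 54.4 to 60.4 CPM in WT (6 of 8 with a peak), smooth muscle markers to 155.0 to 181.8 CPM in KO and 161.4 to 191.7 CPM in WT (6 of 7), and cardiac markers to 8.79 to 16.3 CPM in KO and 11.6 to 13.02 CPM in WT (3 of 8, with none at Nppa, Nppb, Myl7, Tnnt2 and Nkx2-5). Much of the smooth muscle sum came from Des, which is also in the skeletal fibre list (90.85 to 106.0 CPM in KO, 84.14 to 114.2 CPM in WT). Much of the slow fibre sum came from Tpm3 (32.16 to 37.52 CPM in KO, 29.84 to 36.07 CPM in WT). The slow fibre list had 1 promoter called higher (Tnnc1), and the skeletal, smooth muscle and cardiac lists had none called. The part of fibre type in the differences described here was not tested. In bulk tissue, fewer nuclei with an open site and less open chromatin per nucleus cannot be told apart. WT replicate 4 was the highest of the 6 libraries at 26 of the 36 peaks, against 24.8% of all tested peaks. At Atp2a2 it was the highest at only 1 of 7 peaks. The same library was the highest at 5 of 5 skeletal fibre, 7 of 7 fast fibre and 2 of 6 smooth muscle marker promoters. It was the highest at 0 of 6 slow fibre and 0 of 3 cardiac promoters.

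All 36 peaks passed the filter on low counts. Calls were made where edgeR's quasi-likelihood test over all 73896 tested peaks gave a Benjamini-Hochberg adjusted p below 0.05. Called lower in KO were 12 peaks at Pln and 3 at Sln, with 0 at Atp2a1 and 0 at Atp2a2, and 0 of the 36 were called higher. Over all tested peaks, 4.23% were called lower and 2.77% higher (7.01% in either direction). Since the genes were picked with these calls in view, nothing is read from the shares. The median log2 fold change was -0.94 at Pln, -0.58 at Sln, -0.22 at Atp2a1 and 0.26 at Atp2a2, beside -0.01 over all tested peaks.

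Per kilobase of peak, the fast pump gene Atp2a1 was the most open of the 4 in every library, and the other 3 genes lay well below it. Atp2a1 had 42.7 ± 2.65 CPM per kb in KO and 48.3 ± 9.54 CPM per kb in WT (SD, n = 3 each). Sln had 8.42 ± 1.37 CPM per kb in KO and 12.45 ± 3.57 CPM per kb in WT. Atp2a2 had 8.27 ± 1.19 CPM per kb in KO and 7.04 ± 1.02 CPM per kb in WT. Pln had 4.88 ± 0.493 CPM per kb in KO and 9.71 ± 2.19 CPM per kb in WT. In KO libraries Pln came last, below every KO value of the other genes, whereas in WT libraries the ranges of Pln (8.13 to 12.2) and Sln (9.99 to 16.6) overlapped and that of Atp2a2 (up to 8.04) lay just below the Pln range. Over the RefSeq gene spans, peaks covered 41.2% of Atp2a1, 23.6% of Sln, 22.0% of Pln and 2.07% of Atp2a2.

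**Figure D1:**
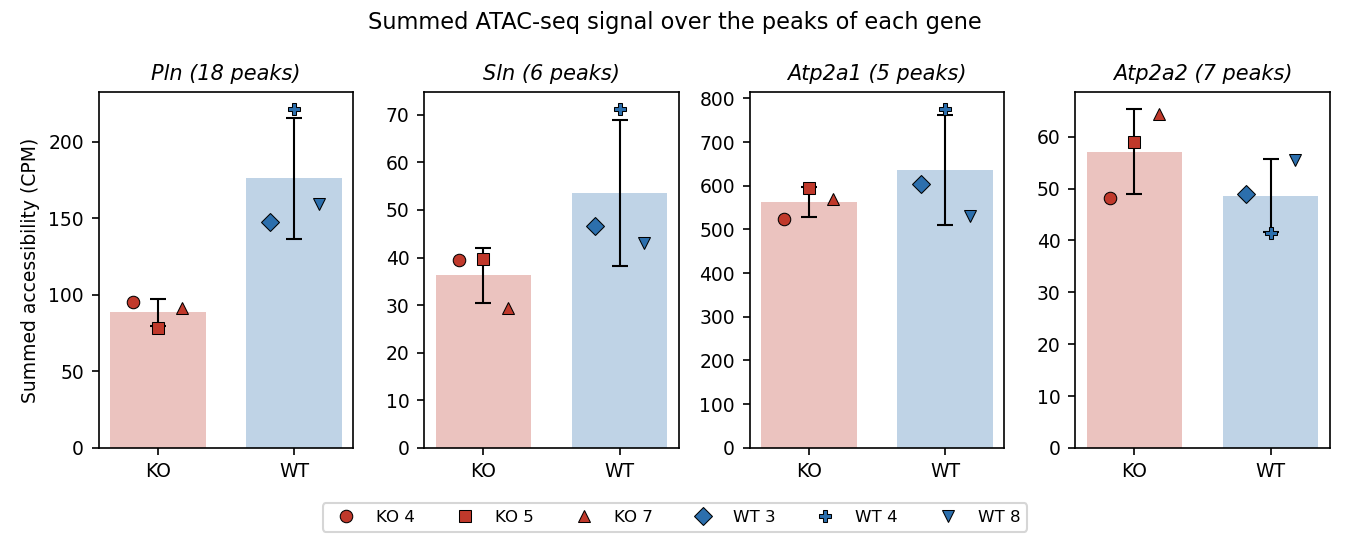
Summed accessibility (CPM, vertical axes from 0) over all peaks of each gene, with 1 point per library, bars at the mean and error bars of 1 SD (n = 3 each). The 3 KO libraries lie below the 3 WT libraries at Pln and Sln, and the groups overlap at Atp2a1 and Atp2a2.

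At Pln (ENSMUSG00000038583, chromosome 10), the sites around the phospholamban gene were less open in KO than in WT as a group. The 18 peaks together held 916, 956 and 1000 raw counts in KO replicates 4, 5 and 7, against 1435, 2410 and 1212 in WT replicates 3, 4 and 8. Scaled for depth, the sums were 95.7, 78.5 and 91.4 CPM in KO and 147.5, 221.5 and 159.3 CPM in WT. Every KO library lay below every WT library, and WT replicate 4 was the highest. The KO mean was 0.503 of the WT mean, and 0.577 of it without WT replicate 4. All 18 log2 fold changes were negative, from -1.98 to -0.06. At 13 of the 18 peaks the KO libraries all lay below the WT libraries, as they did at 11.2% of all tested peaks, and at 0 of the 18 did all KO libraries lie above, as they did at 9.17%. Leaving out WT replicate 4 gave 7 calls in place of 12, leaving out KO replicate 5 gave 6 and leaving out KO replicate 7 gave 9, and 6 of the 12 were called whichever library was left out. With the authors' library factors 2 Pln peaks were called lower. The authors' deposited table also had 2 Pln peaks lower and 0 higher, where 0.872% and 2.44% of all its peaks with an adjusted p were lower and higher.

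The peaks given to Pln lay at very different distances. The 15 peaks within 100 kb of the start site formed a block of 71.8 kb, of which peaks covered 23.3%, and held all 12 calls. Their median log2 fold change was -1.06. The 3 peaks farther upstream had 0 calls, on only 15 to 51 counts per library and with SEs of 0.40 to 0.49, so nothing is read from their missing calls. Pln lies on the plus strand within Cep85l, a centrosomal protein gene read from the minus strand, and 14 of the 18 peaks lay inside the RefSeq span of Cep85l (chr10:53273441-53379883) while 1 lay inside that of Pln (chr10:53337686-53345999). The deposited table assigned these peaks by position, and a peak given to Pln need not act on it.

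Inside the gene, the 1 peak in the annotated 5′ UTR class, 4092 bases after the start (chr10:53340883-53342711), had 7.94, 8.62 and 10.06 CPM in KO replicates 4, 5 and 7, against 16.3, 23.0 and 16.8 CPM in WT replicates 3, 4 and 8. The groups did not overlap, the log2 fold change was -1.08 (SE 0.22), and the peak was called with every library left out in turn. The peak nearest the start, 1303 bases upstream (chr10:53336014-53336713), had 3.34, 2.46 and 3.20 CPM in KO and 3.39, 5.88 and 6.57 CPM in WT. Its groups did not overlap, with WT replicate 3 just above KO replicate 4. Its log2 fold change of -0.81 (SE 0.33) did not pass the threshold, and at 30 to 35 counts in KO and 33 to 64 counts in WT the counting precision was low. The next peak, 2479 bases upstream, had 5.43, 3.78 and 5.85 CPM in KO and 8.12, 10.7 and 6.97 CPM in WT and fell by 0.79 on the log2 scale (SE 0.26). The 3 peaks nearest the start thus all had negative values, and 2 of them were called. The call 2479 bases upstream was kept without WT replicate 8 but lost when any other library was left out. It was also lost with no filter, total counts, the authors' library factors and DESeq2.

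The 4 called peaks of the next stretch lay between 4508 and 22170 bases upstream. The peak with the highest mean CPM of the 18, not scaled for peak width, lay 12157 bases upstream (chr10:53324533-53326487). It had 12.3, 10.8 and 13.7 CPM in KO and 20.9, 28.9 and 18.1 CPM in WT, without overlap (log2 fold change -0.89, SE 0.21). The peak 4508 bases upstream had 6.47, 5.42 and 4.66 CPM in KO and 8.12, 12.6 and 8.55 CPM in WT (log2 fold change -0.83, SE 0.25). The peak 7737 bases upstream had 6.47, 2.55 and 6.95 CPM in KO and 7.09, 12.0 and 9.07 CPM in WT (-0.83, SE 0.26). The groups did not overlap at either peak, and at the second KO replicate 5 was far below the other KO libraries, the highest of which came close to WT replicate 3. The peak 22170 bases upstream had 5.53, 4.43 and 4.66 CPM in KO and 9.15, 13.5 and 9.33 CPM in WT, with a log2 fold change of -1.14 (SE 0.26). Between them, the peak 14235 bases upstream had 6.06, 3.94 and 3.29 CPM in KO and 7.09, 9.93 and 4.86 CPM in WT, so that the groups overlapped and its log2 fold change of -0.74 (SE 0.28) was not called. All 4 calls of this stretch were lost with the authors' library factors. Without KO replicate 5, those at 4508, 7737 and 12157 bases were lost. Those at 4508 and 7737 bases were also lost without WT replicate 4 and with DESeq2. The call at 4508 bases was lost without KO replicate 7, and that at 7737 bases without WT replicate 8 and with total counts.

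The peak with the largest difference relative to its error was 37738 bases upstream (chr10:53299142-53300716). It held 78, 66 and 50 counts in KO and 119, 240 and 100 counts in WT, which is 8.15, 5.42 and 4.57 CPM in KO and 12.2, 22.1 and 13.2 CPM in WT. The groups stood well apart, with KO at 0.378 of WT (log2 fold change -1.40, SE 0.23). The peak 24735 bases upstream, in the exon class (chr10:53312323-53313541), had 4.91, 3.86 and 6.31 CPM in KO and 10.9, 17.1 and 11.2 CPM in WT (-1.39, SE 0.25). The peak 29219 bases upstream had 4.60, 5.34 and 4.30 CPM in KO and 8.63, 10.3 and 9.33 CPM in WT (-0.99, SE 0.26). At these 3 peaks no KO library reached the lowest WT library.

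At the far end of the block, the intergenic peak 65715 bases upstream (chr10:53270912-53272992) had 10.9, 9.61 and 8.23 CPM in KO and 16.03, 27.2 and 19.6 CPM in WT, with a log2 fold change of -1.14 (SE 0.21). The peak 47191 bases upstream had 3.97, 4.11 and 5.94 CPM in KO and 5.76, 13.05 and 10.4 CPM in WT and was called (-1.06, SE 0.26), although KO replicate 7 lay above WT replicate 3. Its call was lost without KO replicate 5 or WT replicate 4 and with the authors' library factors. The peak 43160 bases upstream gave the lowest log2 fold change of the gene, -1.98 (SE 0.67), on only 4, 5 and 9 counts in KO and 14, 19 and 27 counts in WT. That value rests on few counts, and its SE was the widest of the 18. The peak was called, but of the alternatives that gave an adjusted p only leaving out WT replicate 3 kept the call. The peak 58229 bases upstream had 1.78, 2.38 and 1.74 CPM in KO and 5.14, 3.86 and 3.42 CPM in WT, without overlap, and was not called (-1.07, SE 0.40).

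The 3 distant upstream peaks were weak. The peak 156690 bases upstream had 3.24, 2.14 and 3.38 CPM in KO and 2.06, 4.69 and 2.24 CPM in WT, with a log2 fold change of -0.06 (SE 0.40), the highest of the gene, which was 0.47 without WT replicate 4. The peak 222281 bases upstream had 1.98, 1.97 and 1.55 CPM in KO and 1.85, 3.58 and 3.42 CPM in WT (-0.68, SE 0.46). The peak 266922 bases upstream had 2.19, 1.23 and 2.19 CPM in KO and 3.29, 1.56 and 2.76 CPM in WT (-0.44, SE 0.49). The groups overlapped at all 3.

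**Figure D2:**
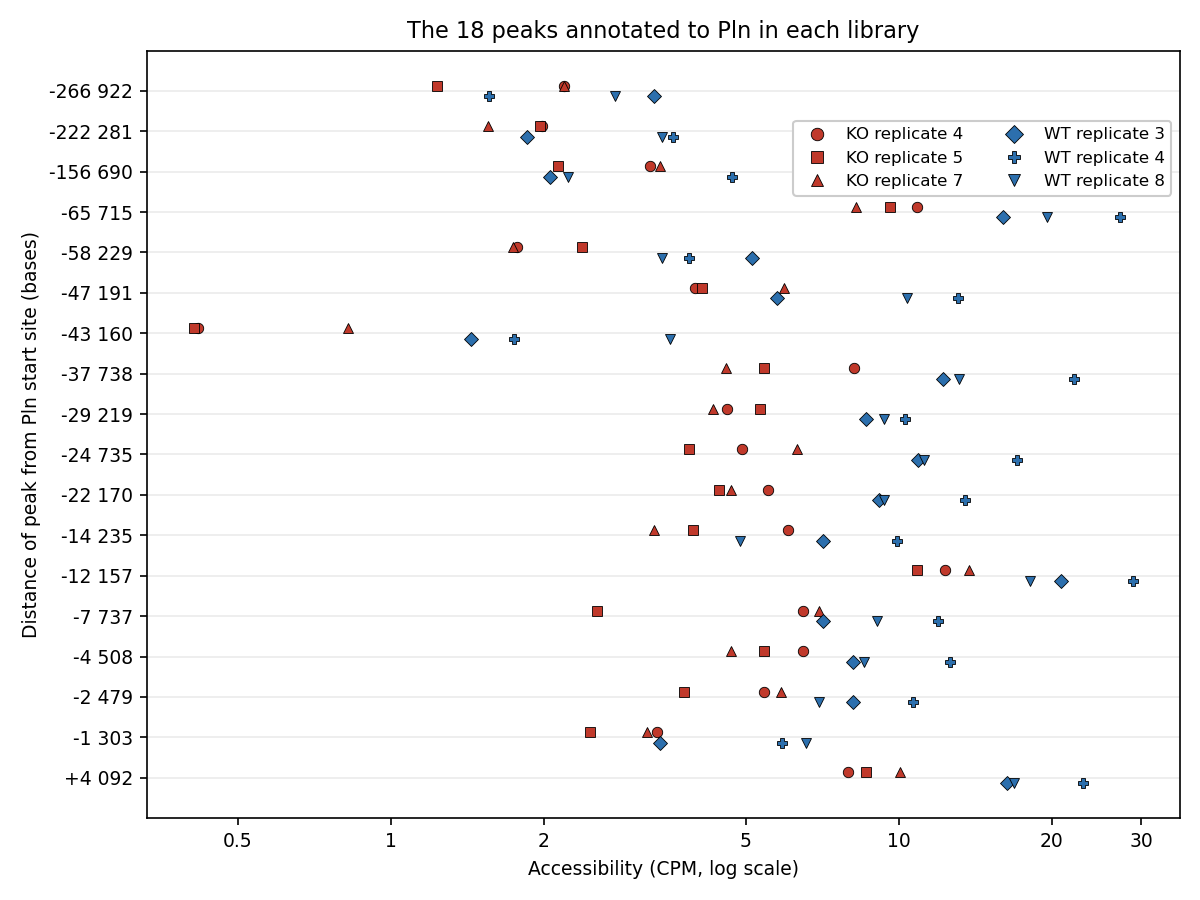
CPM (horizontal axis, log scale) of each Pln peak in each library, ordered down the page from 266922 bases upstream to 4092 bases after the start site. KO libraries (red) lie left of all WT libraries (blue) at 13 of the 18 peaks, and the 3 peaks beyond 100 kb overlap.

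The lower accessibility reached past the peaks given to Pln. Within 100 kb of its start site stood 16 peaks assigned to Cep85l, of which 7 were called lower and 0 higher in edgeR's quasi-likelihood test, where 4.23% and 2.77% of all tested peaks were. The 7 became 2 with the authors' library factors and 1 in the authors' deposited table. All 16 had negative log2 fold changes (median -0.70, range -1.37 to -0.22). Cep85l had 2 peaks of the promoter class nearest a start. The first, 12040 bases past the Pln start (chr10:53348352-53351062), lies at a transcript start inside the RefSeq span of Cep85l and had 21.8, 23.0 and 19.8 CPM in KO and 32.2, 46.5 and 35.8 CPM in WT, without overlap. Its fall was -0.83 on the log2 scale (SE 0.19, adjusted p = 6.48e-04 in edgeR's quasi-likelihood test). The second, 41934 bases past the Pln start and at the start of the RefSeq span, had 21.7, 26.5 and 38.3 CPM in KO and 45.2, 31.8 and 25.4 CPM in WT. Its groups overlapped and it was not called (log2 fold change -0.24, SE 0.19, adjusted p = 0.58, edgeR). The 2 lowest Cep85l log2 fold changes were -1.37 at the peak 28811 bases past the Pln start (adjusted p = 0.00268, edgeR) and -1.32 at the peak 50886 bases past it (adjusted p = 1.41e-06, edgeR). Without KO replicate 7 the first of these was not called (0.0533). With the authors' library factors the promoter-class peak at 12040 bases was not called (0.371). Along the chromosome, Pln lay in a run of 44 consecutive tested peaks with negative values, from -266.9 kb to 197.7 kb. Only peaks within 500 kb of the Pln start were looked at. Upstream the run ended at the outermost of these and not at a positive value, so its upstream limit is not known. The run was drawn by its negative sign and includes the 18 Pln peaks, so its sign is no support. With total counts, the authors' library factors, the authors' deposited table or KO replicate 5 left out, 42 of the 44 were negative and the run was broken. It was also broken, with 43 of the 44 negative, without KO replicate 7, WT replicate 3, WT replicate 4 or WT replicate 8. Within the run 22 peaks were called lower and 0 higher. The calls numbered 14 without WT replicate 4 and 13 without KO replicate 5, 4 with the authors' library factors and 3 in the authors' deposited table. The run and the Cep85l peaks were looked at after the Pln values were known.

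By distance, the median log2 fold change was -1.02 over the 14 peaks in the 100 kb before the Pln start (11 called). It was -0.37 over the 2 peaks from 100 to 250 kb before it and -0.44 at the 1 peak farther upstream (0 called in each). After the start it was -0.71 over the 17 peaks in the first 100 kb (8 called), -0.64 over the 11 peaks from 100 to 250 kb (3 called) and 0.01 over the 4 peaks from 250 to 500 kb (0 called). Over all tested peaks, 4.23% were called lower. The peaks before the start were all given to Pln, which was chosen by its values. That the values are lowest there is thus no support. The last calls on that side were 2 intergenic peaks given to Mcm9, a DNA helicase gene, at 181652 bases (-0.89, adjusted p = 6.3e-04, edgeR) and 190746 bases (-0.78, adjusted p = 0.0262, edgeR) past the Pln start. The second call was lost without KO replicate 4 (0.0893), KO replicate 5 (0.443), WT replicate 3 (0.0533) or WT replicate 4 (0.226), and with the authors' library factors neither peak was called (0.271 and 0.373). The promoter peak of Mcm9 was not called.

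**Figure D3:**
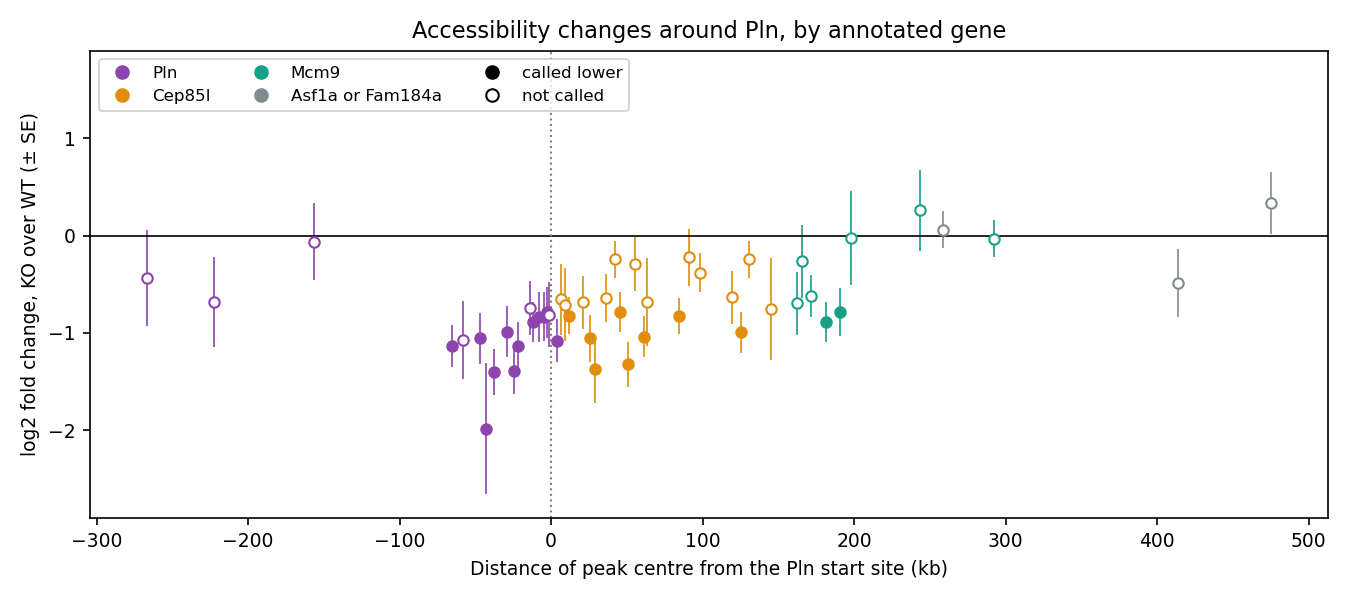
The log2 fold change of KO over WT (vertical axis, bars of 1 SE) of each tested peak against its distance in kb from the Pln start site (dotted line), coloured by annotated gene; filled points were called lower. The 22 filled points lie between 65715 bases before and 190746 bases after the start. The 4 peaks more than 250 kb after the start run from -0.49 to 0.33, and the 1 peak more than 250 kb before it lies at -0.44.

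At Sln (ENSMUSG00000042045, chromosome 9), the sarcolipin gene, 3 of the 4 peaks away from the start site were less open in KO and the 2 beside it were not called. The 6 peaks held 379, 483 and 322 counts in KO and 453, 775 and 327 counts in WT, and summed to 39.6, 39.7 and 29.4 CPM in KO and 46.6, 71.2 and 43.0 CPM in WT. The groups did not overlap, but WT replicate 4 was the highest library at all 6 peaks, and the KO mean was 0.676 of the WT mean with it and 0.809 of it without it. The 3 calls at Sln came down to 0 when WT replicate 4 or KO replicate 7 was left out, to 1 when KO replicate 5 was, and to 0 with the authors' library factors.

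The Sln peak with the largest difference relative to its error, 23340 bases past the start (chr9:53873245-53873763), had 3.03, 3.28 and 2.38 CPM in KO and 5.45, 7.90 and 6.05 CPM in WT (log2 fold change -1.16, SE 0.31). The peak 20406 bases upstream (chr9:53829485-53830030) had 5.01, 4.52 and 4.48 CPM in KO and 8.12, 11.0 and 7.63 CPM in WT (-0.94, SE 0.26). The groups were apart at both. The Sln peak with the highest mean CPM lay 14396 bases upstream. It had 13.05, 12.1 and 12.1 CPM in KO and 19.0, 26.0 and 12.9 CPM in WT. It was called (-0.65, SE 0.21), with WT replicate 8 just below KO replicate 4. The peak nearest the start, 1204 bases upstream, had 5.22, 6.08 and 4.11 CPM in KO and 5.24, 10.7 and 5.79 CPM in WT (-0.50, SE 0.27), with overlap. The peak 2261 bases past the start had 9.29, 9.36 and 3.84 CPM in KO and 7.40, 10.2 and 8.02 CPM in WT (-0.19, SE 0.25), where KO replicate 7 alone was low. The highest log2 fold change was 0.19 (SE 0.37), at the peak 17530 bases upstream, with 3.97, 4.35 and 2.56 CPM in KO and 1.34, 5.42 and 2.63 CPM in WT. The groups overlapped at these last 3 peaks. Only 1 peak of another gene (Slc35f2) lay within 100 kb of the Sln start, and it was not called (-0.36).

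At Atp2a1 (ENSMUSG00000030730, chromosome 7), the fast pump gene, the groups overlapped at all 5 peaks and 0 peaks were called. The peaks held 5027, 7231 and 6238 counts in KO and 5884, 8440 and 4033 counts in WT, the deepest values of the 4 genes. They summed to 524.9, 593.7 and 570.3 CPM in KO and 604.7, 775.7 and 530.2 CPM in WT. WT replicate 4 was the highest library at 5 of 5 peaks, and the KO mean was 0.884 of the WT mean with it and 0.992 of it without it. The promoter peak (chr7:126463006-126466393), which holds the sequence printed above, had 173, 192 and 182 CPM in KO and 182, 243 and 153 CPM in WT, with a log2 fold change of -0.08 (SE 0.17). The peak with the highest mean CPM, 4615 bases long, lay over the end of the gene (chr7:126443055-126447669). It had 179, 195 and 184 CPM in KO and 214, 246 and 188 CPM in WT (-0.22, SE 0.17). The peak listed 2657 bases upstream had 29.5, 35.1 and 37.8 CPM in KO and 39.1, 51.7 and 33.1 CPM in WT (-0.28, SE 0.18), the lowest log2 fold change of the gene. The other 2 peaks had -0.26 (SE 0.18) and -0.19 (SE 0.17). At these counts the SE of 0.17 to 0.18 was the smallest of the 36 peaks, and differences of this size did not pass the threshold. The 13 tested peaks of other genes within 100 kb ran from -0.82 to 0.45, with 0 called.

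At Atp2a2 (ENSMUSG00000029467, chromosome 5), the slow and cardiac pump gene, log2 fold changes were positive before the gene and negative within it, with 0 peaks called and overlap of the groups at all 7. The peaks held 461, 718 and 703 counts in KO and 476, 451 and 422 counts in WT, and summed to 48.1, 59.0 and 64.3 CPM in KO and 48.9, 41.5 and 55.5 CPM in WT. WT replicate 4, the highest at the other 3 genes, was the lowest here. The 5 peaks at and before the start had log2 fold changes of 0.26 to 0.54, and the 2 peaks inside the gene had -0.23 (SE 0.31) and -0.69 (SE 0.45). The promoter peak, 530 bases upstream (chr5:122502179-122503331), had the highest mean CPM of the gene. It had 10.4, 16.3 and 15.4 CPM in KO and 14.1, 11.6 and 9.60 CPM in WT (0.26, SE 0.22). The peak 8539 bases upstream had 13.2, 13.4 and 14.99 CPM in KO and 8.22, 8.82 and 13.7 CPM in WT (0.45, SE 0.22). WT replicate 8 stood among the KO libraries there, and without it the peak was called higher. The highest log2 fold change, 0.54 (SE 0.28), was at 27298 bases upstream, with 4.39, 7.72 and 7.68 CPM in KO and 4.63, 3.22 and 6.05 CPM in WT. The median log2 fold change of the 7 peaks was 0.26, and 0.05 without WT replicate 4.

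Near Atp2a2, 2 of the 6 peaks of other genes within 100 kb were called higher in edgeR's quasi-likelihood test, where 2.77% of all tested peaks were. They lay 1 beside Anapc7, a subunit of the anaphase-promoting complex, and 1 beside Arpc3, a subunit of the ARP2/3 complex. The Anapc7 peak averaged 19.5 ± 0.794 CPM in KO and 11.6 ± 1.59 CPM in WT (SD, n = 3 each; log2 fold change 0.75, SE 0.21, adjusted p = 0.00942, edgeR). The Arpc3 peak averaged 7.75 ± 2.38 CPM in KO and 3.93 ± 0.910 CPM in WT (0.99, SE 0.28, adjusted p = 0.0106, edgeR). Both calls were lost without KO replicate 4 (adjusted p = 0.0546 for Anapc7 and 0.0943 for Arpc3, edgeR) and without KO replicate 5 (0.0563 and 0.177). That of Anapc7 was also lost without WT replicate 3 (0.0840) and that of Arpc3 without WT replicate 4 (0.0894). With the authors' library factors the Anapc7 call was lost (adjusted p = 0.0702, edgeR) and the Arpc3 call was kept (0.0103).

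**Figure D4:**
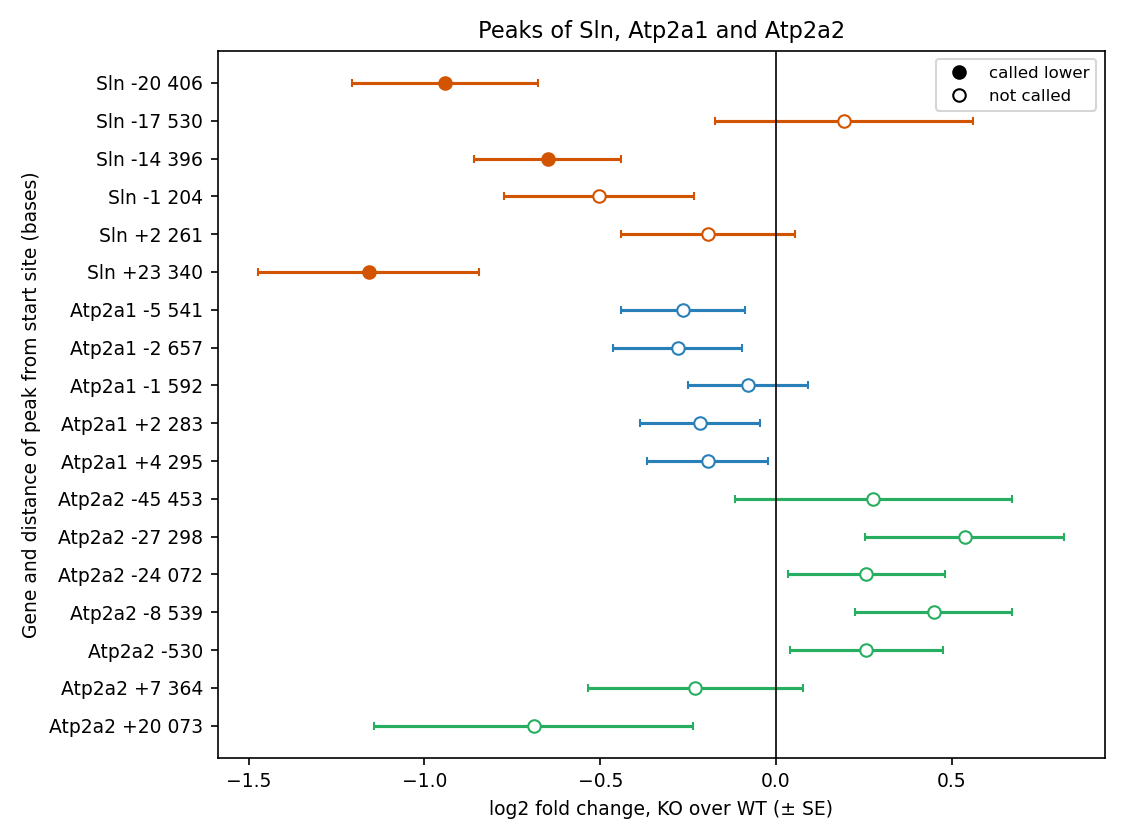
The log2 fold change of KO over WT (horizontal axis, bars of 1 SE) of each peak of Sln, Atp2a1 and Atp2a2, labelled by distance from the start site in bases; filled points were called lower. The 3 filled Sln peaks lie between -1.16 and -0.65, the 5 Atp2a1 peaks just left of 0, and the 5 upstream Atp2a2 peaks right of it.

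Ratios of summed counts within a library do not depend on the library scaling. Pln over Atp2a1 was 0.182, 0.132 and 0.160 in KO and 0.244, 0.286 and 0.301 in WT, so the groups were apart, and WT replicate 4 no longer led. Pln over Atp2a2 was 1.99, 1.33 and 1.42 in KO and 3.01, 5.34 and 2.87 in WT, again apart. Sln over Atp2a1 was 0.0754, 0.0668 and 0.0516 in KO and 0.0770, 0.0918 and 0.0811 in WT, where KO replicate 4 came close to WT replicate 3. Atp2a2 over Atp2a1 was 0.0917, 0.0993 and 0.113 in KO and 0.0809, 0.0534 and 0.105 in WT, with overlap. Pln over Sln was 2.42, 1.98 and 3.11 in KO and 3.17, 3.11 and 3.71 in WT, where KO replicate 7 came within rounding of WT replicate 4. Accessibility at Pln was lower relative to both pump genes in every KO library than in any WT library. These ratios are made from the counts by which the genes were chosen, so they add no support.

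Other genes of the calcium pump cycle were read from a list of 30 genes, 28 of which had a peak: further pumps and exchangers, micropeptide regulators, calcium-binding proteins of the sarcoplasmic reticulum, and the kinases and phosphatase that act on phospholamban. Of their 226 tested peaks, 24 were called lower, 3 higher and 199 did not pass in edgeR's quasi-likelihood test, beside 4.23% lower and 2.77% higher over all tested peaks, with a median log2 fold change of -0.10. Without WT replicate 4 the counts were 9 lower and 7 higher, without KO replicate 5 they were 9 lower and 1 higher, and without KO replicate 7 they were 14 lower and 1 higher. The higher calls were 1 without KO replicate 4 and 0 without WT replicate 3. With the authors' library factors 6 were lower, and the authors' deposited table had 3 lower and 1 higher. Of the 25 peaks nearest a start site within 3 kb, 2 were called lower (Ppp1r3a and Mrln), 0 higher, and the median was 0.03.

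Among regulators of the pump, Mrln, which encodes myoregulin, a micropeptide that inhibits SERCA in skeletal muscle, had 2 of 3 peaks called lower. Its promoter peak averaged 22.8 ± 2.09 CPM in KO and 35.3 ± 7.03 CPM in WT (log2 fold change -0.64, SE 0.19, adjusted p = 0.0161, edgeR), a call lost when KO replicate 5 (0.127), KO replicate 7 (0.126) or WT replicate 4 (0.161) was left out. Its peak 19974 bases past the start averaged 11.6 ± 1.51 CPM in KO and 22.9 ± 7.60 CPM in WT (-0.99, SE 0.21, adjusted p = 1.22e-04, edgeR), called with each library left out but not with the authors' library factors (0.146). Among the phosphatase genes, Ppp1r3a, the muscle subunit that directs protein phosphatase 1 to glycogen and the sarcoplasmic reticulum, had 12 of 23 peaks called lower. Its peak 2208 bases upstream averaged 4.45 ± 0.760 CPM in KO and 16.1 ± 4.99 CPM in WT (-1.87, SE 0.24, adjusted p = 1.3e-11, edgeR). That gene alone held 12 of the 24 lower calls of the list.

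Among the CaM kinase genes, Camk2d had 3 of 28 peaks called lower, led by an intergenic peak 9425 bases upstream with 7.36 ± 0.450 CPM in KO and 18.05 ± 6.97 CPM in WT (-1.30, SE 0.22, adjusted p = 9.79e-07, edgeR). Camk2g (-0.63, adjusted p = 0.0278, edgeR) and Camk2b (-0.61, adjusted p = 0.0434, edgeR) had 1 lower peak each, of 15 and 16 tested, shares near that of all tested peaks. With KO replicate 4, KO replicate 5 or WT replicate 4 left out neither was called (adjusted p of 0.0775 to 0.436, edgeR), nor Camk2g without KO replicate 7 (0.101) or Camk2b without WT replicate 3 (0.0806). The exchanger genes had calls in opposite directions: Slc8a1, which encodes the sodium-calcium exchanger NCX of heart, had 4 of 14 peaks called lower, and its paralog Slc8a3, expressed in skeletal muscle, had 2 of 19 called higher. The leading Slc8a1 peak averaged 7.48 ± 0.652 CPM in KO and 14.0 ± 1.52 CPM in WT (-0.90, SE 0.23, adjusted p = 0.00292, edgeR), a call lost with the authors' library factors (0.237). The leading Slc8a3 peak averaged 9.37 ± 1.81 CPM in KO and 4.78 ± 0.779 CPM in WT (0.97, SE 0.26, adjusted p = 0.00603, edgeR), a call kept with those factors (0.0105) and lost without KO replicate 5 (0.0916) or WT replicate 3 (0.0708). The plasma membrane pump gene Atp2b1 had 1 of 19 peaks lower, again a share near that of all peaks (-0.84, adjusted p = 0.0111, edgeR), and Srl, which encodes the calcium-binding protein sarcalumenin, 1 of 9 higher (0.85, adjusted p = 0.0487, edgeR). The Atp2b1 call was lost without KO replicate 5 (0.249), KO replicate 7 (0.0674) or WT replicate 4 (0.327). The Srl call was lost without KO replicate 4 (0.324), KO replicate 5 (0.0636), KO replicate 7 (0.0777) or WT replicate 3 (0.337).

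Among 8204 genes with 3 or more tested peaks, those whose summed CPM (log2) followed each gene most closely over the 6 libraries were Tmem38b, Ndufs4 and Spaca7 for Pln (Pearson r 0.999 each), Eya4, Plekha3 and Arid1b for Sln (0.996, 0.996 and 0.993), Dnmbp, 4930546C10Rik and Cnksr3 for Atp2a1 (0.994, 0.993 and 0.991) and B3gnt2, Bcl3 and A4galt for Atp2a2 (0.994, 0.991 and 0.984). With 6 libraries that share the genotype split and WT replicate 4, so high an r describes how the libraries are spaced and nothing more. The size of the difference was not shared: KO minus WT on the log2 scale was -0.46 for Tmem38b, -0.38 for Ndufs4 and -1.64 for Spaca7.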

How the data were processed

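ATAC-seq libraries of mouse quadriceps femoris, 3 Prr14-KO and 3 Prr14-WT, were compared. The build GRCm38 and the tools BWA, Trimmomatic, MACS2, bedtools, deepTools and DESeq2 1.6.3 are named in the submitters' processing notes; their settings, the read shift and whether reads or fragments were counted are not stated there. The authors deposited whole-number counts per peak and library over 1 common list of 75134 peaks. The authors' normalized signal is each count over a single factor of its library (largest relative deviation 5e-15). The deposited table also gives the authors' log2 fold change, their p-value raw and adjusted, a score per peak, and an annotated gene, feature class and distance to a start site; for Atp2a1 the distances of 3 peaks are counted from an internal transcript start.

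Counts were tested with edgeR 4.0.16 in R 4.3.3 (quasi-likelihood test, two-sided, TMM, filterByExpr with minimum count 10 and minimum total 15), which left 73896 peaks, with Benjamini-Hochberg adjustment over all of them. The standard error (SE) is the log2 fold change over the root of F. The biological coefficient of variation common to all peaks was 0.201. In simulated data of 73401 peaks, 40 peaks were changed at each fold. The fit called 35% of those with a fold of 0.5, 82.5% at 0.25, 55% at 2 and 0% at 1.5. In the real data 5177 peaks were called, which makes the adjustment less strict there. These shares thus do not give the power of the real fit. Alternatives were no filter, total counts, the authors' library factors, each library left out, limma 3.58.1 (voom), DESeq2 1.42.0 and the authors' calls.

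For each gene the peak nearest its start, with the smallest p, the highest CPM and the highest log2 fold change is named, with all Pln peaks; for the pathway list, genes with a called peak. The genes and lists were chosen with earlier results of these data known. The Cep85l peaks, the run around Pln and the named peaks of other genes were given alternatives chosen after seeing the data. Promoter sequences are from RefSeq (GRCm38.p6) and matched 2 of the 4 genes.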

Additional observations from a re-analysis of the deposited data

How the results depend on the processing

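The authors' library factors moved the median log2 fold change of all tested peaks to 0.19, against -0.01 with TMM, and the split of calls moved with it: 752 peaks were called lower over the genome, 2 at Pln, 0 at Sln, 6 in the calcium pump list, 2 at Cep85l and 4 in the run around Pln. The authors' deposited table gave 579, 2, 0, 3, 1 and 3 for the same counts, and 1 list peak higher, as did DESeq2. With one library left out at a time, the lower calls ranged from 1408 to 3100 over all peaks (1408 without WT replicate 4, 1507 without KO replicate 5, 2074 without KO replicate 7), from 6 to 11 at Pln, from 0 to 3 at Sln, from 9 to 23 in the list, from 5 to 7 at Cep85l and from 13 to 21 in the run; the higher calls ranged from 958 to 2247 over all peaks (958 without KO replicate 5, 1209 without KO replicate 4, 1279 without WT replicate 3), from 0 to 1 at Atp2a2 (1 without WT replicate 8) and from 0 to 7 in the list. The authors' library factors ran from 0.977 (KO replicate 7) to 1.035 (KO replicate 5). Total counts in peaks ran from 7608514 (WT replicate 8) to 12061822 (KO replicate 5). With the authors' factors the SE of the Atp2a1 promoter peak was 0.32, against 0.17 with TMM. The cause of these shifts in calls was not tested.

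Of 430 values of single peaks of the 4 genes under these alternatives, 349 kept direction and side of the threshold, 66 lost and 3 gained the call, and 12 changed sign. The peak 156690 bases upstream of Pln had 5.71e-04 with total counts, 0.10 with the authors' library factors and in the authors' deposited table, and -0.26 to 0.47 with one library left out (0.16 without KO replicate 5, 0.47 without WT replicate 4). The Atp2a1 promoter peak had 0.10 with the authors' factors and in the authors' deposited table, and -0.17 to 0.15 with one library left out, the positive value being without WT replicate 4. The Atp2a1 peak 4295 bases past the start ran from -0.26 to 0.039 and the Atp2a2 peak 7364 bases past the start from -0.42 to 0.034, both positive only without WT replicate 4. At Sln, the peak 17530 bases upstream ran from -0.16 (without WT replicate 3) to 0.92 (without WT replicate 4), and the peak 2261 bases past the start from -0.37 to 0.15 (without KO replicate 7). The Cep85l peak at the start of its RefSeq span ran from -0.48 to 0.029 with one library left out, positive only without WT replicate 3. The peak 43160 bases upstream of Pln had no adjusted p from DESeq2. No paired analysis was possible because KO and WT share only replicate number 4. Peaks under about 30 counts have wide errors.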
